A study of Mus musculus with 24 samples.

Results

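The genes of glutathione synthesis and cystine uptake were followed in mouse liver as 9 rows of a count table of 24015 gene symbols. They are Gclc, Gclm, Gss, Gsr, Slc7a11, Ggt1, Gpx1, Gpx2 and Gpx4, chosen by symbol for their place in the pathway, and all 9 are in the table. The choice was made with earlier results of these data known, so shares of all genes set beside member counts are a description. Furan mice were female B6C3F1 animals, a hybrid strain of toxicology, gavaged daily for 21 days with furan at 8 mg per kg of body weight, dissolved in corn oil. Control mice of the same sex and strain received corn oil alone, and all animals were bought at 5 to 6 weeks of age and sampled 4 hours after the last dose. Each of the 8 livers, 4 per treatment, was divided into 3 pieces: one fixed in formalin for 3 weeks and embedded in paraffin (FFPE 3 weeks), one fixed for 18 hours and embedded (FFPE 18 h), and one snap frozen. This gave 6 groups of 4 libraries of total RNA depleted of ribosomal RNA, 24 libraries in all. The labels give an RNA integrity number of 1.3 to 2.4 for the fixed pieces and above 8.9 for the frozen pieces, a different extraction kit for fixed tissue, and 2 sections of 10 µm in place of 1 for the 3-week pieces. Preservation, kit, input and piece of liver therefore cannot be told apart.

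Glutathione is a tripeptide of glutamate, cysteine and glycine that serves liver cells as their main soluble thiol. Glutamate-cysteine ligase, built from a catalytic subunit (Gclc) and a modifier subunit (Gclm), joins glutamate to cysteine in the rate-limiting step, and glutathione synthetase (Gss) adds the glycine. Cysteine reaches the cell in part as its oxidized dimer cystine, imported by the exchanger whose transport subunit is Slc7a11. Glutathione peroxidases use glutathione to reduce peroxides, and glutathione reductase (Gsr) returns the oxidized form to the reduced one. In hepatocytes furan is oxidized by the cytochrome Cyp2e1 to a reactive dialdehyde that binds glutathione, which is the question these genes bear on. Several of them are textbook targets of the transcription factors NRF2 (gene Nfe2l2), through antioxidant response elements, and ATF4, through amino acid response elements.

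Depth was lowest after long fixation, at 5.56 to 11.02 M counts (megacounts) per library, with 22.9 to 28.1 M after 18 hours of fixation and 38.0 to 49.3 M in frozen pieces. Levels are in CPM, a count scaled to library size, with trimmed-mean (TMM) factors within each preservation, so CPM of different preservations are not directly comparable. All 12 hepatocyte markers were detected in every group, with summed levels of 172555 to 187544 CPM in furan and 168155 to 187710 CPM in control frozen libraries. Albumin (Alb) made up most of these sums, with means of 121413 CPM in furan and 110914 CPM in control frozen libraries. The sums were 124463 to 143041 CPM in furan and 128049 to 136091 CPM in control FFPE 18 h libraries. In FFPE 3 weeks libraries they were 74068 to 91984 CPM in furan and 90075 to 97756 CPM in control animals. The frozen library of control animal 3 stood apart: its correlation with the rest of its group across genes was 0.9562, against 0.9856 to 0.9941 for the other frozen libraries. Results of members whose call turns on it are given with and without it, and some other sizes are given both ways. A difference was called at a Benjamini-Hochberg adjusted p below 0.05 in edgeR's quasi-likelihood test over all genes tested. In bulk tissue, more RNA per cell and more cells of a type cannot be told apart.

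Furan livers carried more RNA for the catalytic subunit of glutamate-cysteine ligase in all 3 pieces, and the modifier subunit did not pass the test in any. The cystine transporter subunit Slc7a11 was near or at 0 in control livers and was counted in every furan library. Gsr and Gss rose in some pieces, Gpx1 fell slightly in FFPE 18 h tissue, and Gpx4 did not pass the test anywhere. In frozen tissue 1 member of 6 tested was called higher, where 2.78% of 14122 genes were called, 1.57% higher and 1.2% lower. Slc7a11, which is absent from that fit, is left out of the next counts of calls because it passed the filter on low counts in fixed tissue only through its furan libraries. In FFPE 18 h tissue 3 of the 6 other tested members were called higher and 1 lower, against 7.82% and 7.72% of 14204 genes (15.5% in all). In FFPE 3 weeks tissue 2 of the 6 were called higher and none lower, against 1.07% and 1.51% of 12983 genes (2.58% in all). Ggt1 and Gpx2 did not pass the filter in any comparison. The 4 furan libraries lay wholly above the 4 control libraries for 3 of these 6 members in frozen tissue (7.48% of all genes), 3 in FFPE 18 h tissue (10.3%) and 2 in FFPE 3 weeks tissue (4.18%), and wholly below for 1 in FFPE 18 h tissue (9.9%). None lay wholly below in frozen tissue (6.25% of all genes) or FFPE 3 weeks tissue (4.48%).

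**Figure D1:**
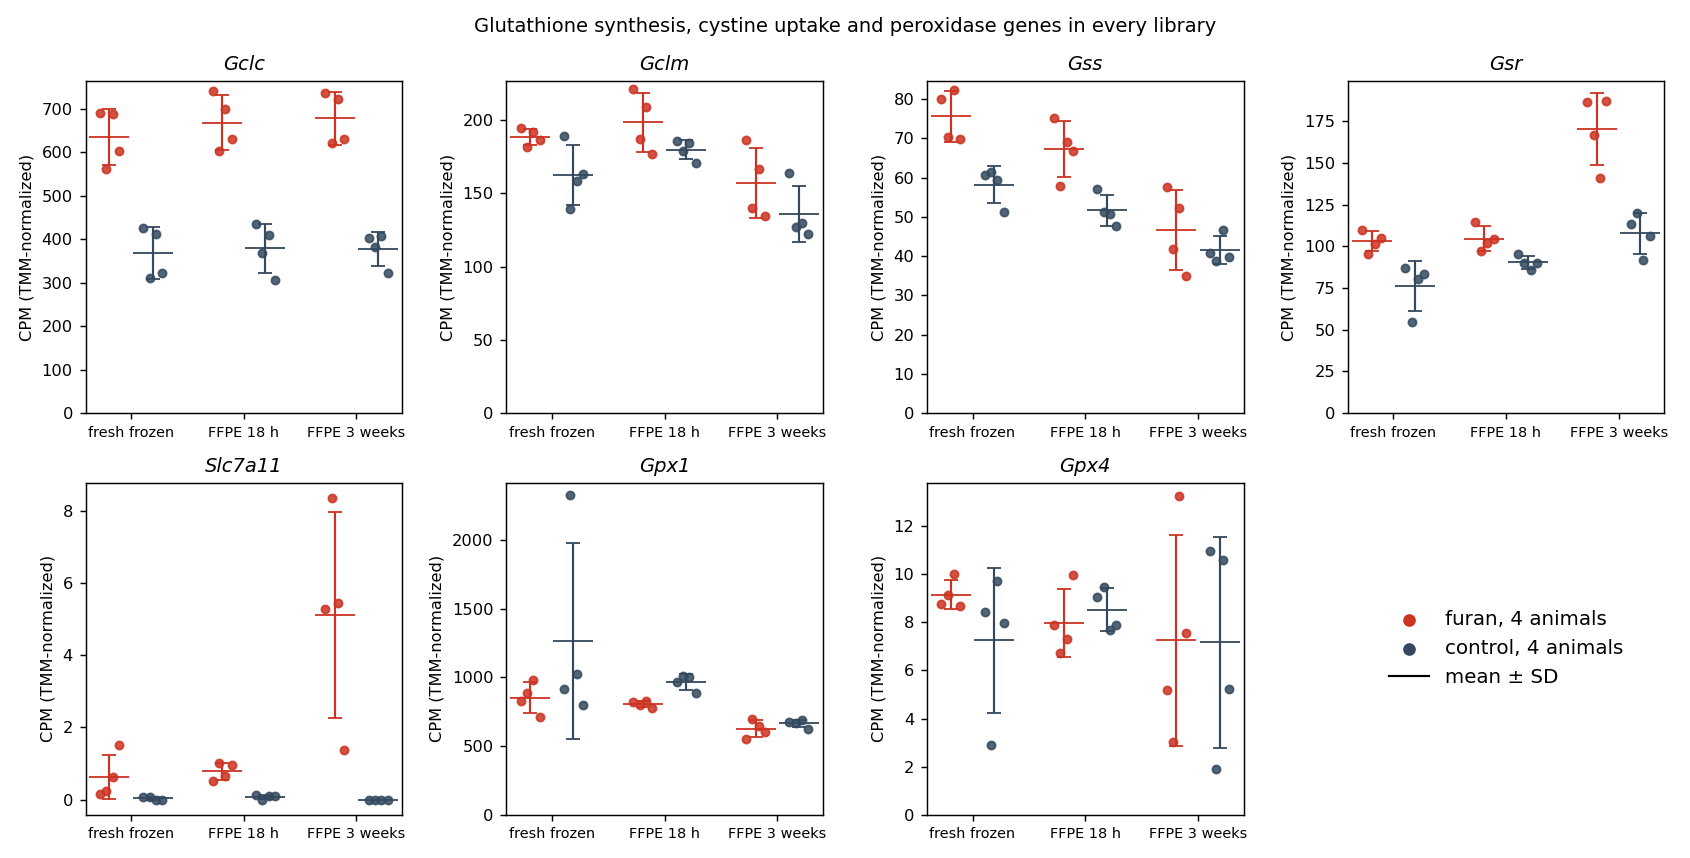
Levels of 7 genes in all 24 libraries, in TMM-normalized CPM on linear axes, furan in red left of control in blue for each preservation; points are animals, and the horizontal and vertical lines give mean ± SD (n = 4). Gclc separates the treatments in each preservation, Slc7a11 is at or near 0 in control libraries, and the frozen library of control animal 3 is the high Gpx1 point at 2326 CPM.

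Gclc encodes the subunit that holds the active site of the ligase. In frozen liver it stood at 690, 561, 687 and 602 CPM in furan animals 41, 42, 43 and 44, against 425, 310, 412 and 322 CPM in control animals 2, 3, 4 and 6. The lowest furan library was thus above the highest control library. The means were 635 ± 63.8 CPM in furan and 367 ± 59.8 CPM in control livers (SD, n = 4 each), a log2 fold change of 0.79 ± 0.14 (SE; edgeR adjusted p = 0.0137). That call was lost without furan animal 43 (log2 fold change 0.75, edgeR adjusted p = 0.0673) and without furan animal 44 (0.82, edgeR adjusted p = 0.0518). It was kept without control animal 3, at 0.72 (edgeR adjusted p = 0.00134).

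The fixed pieces gave Gclc at nearly the same fold change. The FFPE 18 h values were 742, 602, 699 and 629 CPM in furan animals and 435, 368, 410 and 306 CPM in control animals, a log2 fold change of 0.82 ± 0.10 (edgeR adjusted p = 0.000177). The FFPE 3 weeks values were 737, 622, 722 and 630 CPM in furan animals and 402, 381, 406 and 322 CPM in control animals, a log2 fold change of 0.84 ± 0.10 (edgeR adjusted p = 4.82e-06). Neither fixed preservation had an overlap between treatments. An interaction of treatment with preservation did not pass for Gclc in any pair, with estimates of 0.04 ± 0.18 for FFPE 18 h against frozen, 0.05 ± 0.17 for FFPE 3 weeks against frozen and 0.03 ± 0.14 for FFPE 3 weeks against FFPE 18 h (log2, ± SE). These standard errors leave room for differences in either direction.

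The spread of Gclc within a treatment followed the animal. Furan animals ranked 41, 43, 44 and 42 from high to low in each of the 3 pieces. Among control animals, 2 and 4 were the higher pair and 3 and 6 the lower pair in each piece, with the order inside the pairs changing. No other tested member had a single order of furan animals in all 3 pieces, although Gclm kept animals 41 and 43 on top. The pieces come from the same liver, so these values are repeated measurements of 8 animals.

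**Figure D2:**
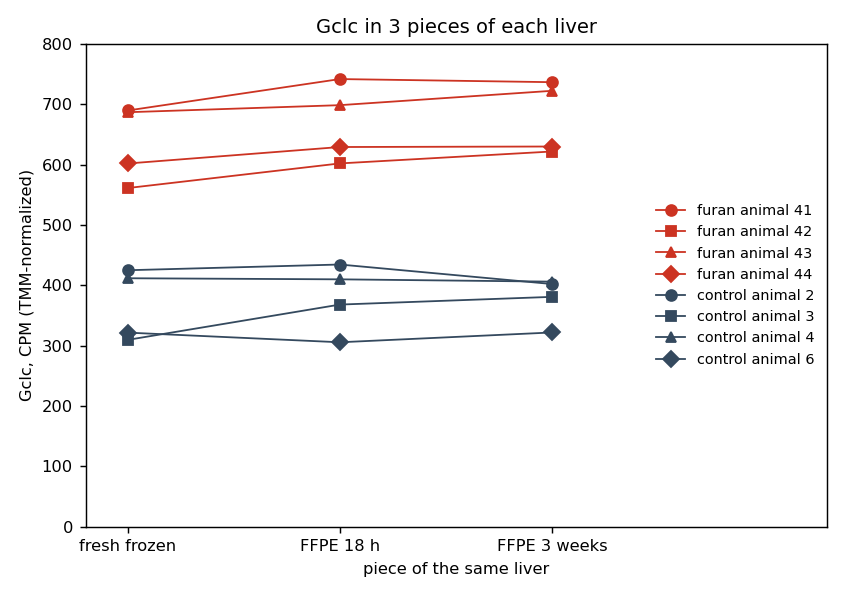
Gclc level (TMM-normalized CPM, linear axis from 0) in the 3 pieces of each liver, with a line per animal, furan in red and control in blue. The 4 furan lines run between 561 and 742 CPM, all above the 4 control lines between 306 and 435 CPM.

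Gclm encodes the modifier subunit, which eases inhibition of the ligase by glutathione. It is listed here with the upstream part of its promoter because that part held a match to an antioxidant response element core. The 250 bases before its RefSeq start lie at chr3:122245307-122245556 on the plus strand of GRCm38.p6, and the capitals mark a match to that core, TGACNNNGC, read on the minus strand from 134 to 126 bases before the start:

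Gclm: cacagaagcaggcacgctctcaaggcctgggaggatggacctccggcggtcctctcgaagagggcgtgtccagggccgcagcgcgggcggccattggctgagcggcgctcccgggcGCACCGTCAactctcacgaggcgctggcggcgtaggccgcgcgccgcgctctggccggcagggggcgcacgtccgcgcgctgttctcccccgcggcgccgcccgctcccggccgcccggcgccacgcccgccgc

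The core occurs on either strand in 12.4% of 32851 RefSeq promoter windows of 300 bases (250 before to 50 after a start), so a match is common and is given as a description. In all, 13 RefSeq windows were matched to 7 of the 9 members and searched alike. Gclc and Gsr had no window. Of the other members, only Ggt1 had the core, in several of its windows. The AP-1 sequence TGACTCA, found in 5.20% of windows on either strand, was in none of the member windows.

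In frozen liver Gclm stood at 194, 182, 191 and 187 CPM in furan animals 41 to 44, against 189, 139, 158 and 163 CPM in control animals 2, 3, 4 and 6. Control animal 2 lay within the range of the furan animals. The log2 fold change was 0.22 ± 0.11 (edgeR adjusted p = 0.337), or 0.15 without control animal 3 (edgeR adjusted p = 0.387). Gclm averaged 198 ± 20.3 CPM in furan and 180 ± 6.73 CPM in control FFPE 18 h tissue, and in FFPE 3 weeks tissue 157 ± 24.0 CPM in furan and 136 ± 19.1 CPM in control livers (SD, n = 4 each). The log2 fold changes were 0.14 ± 0.07 (edgeR adjusted p = 0.198) and 0.21 ± 0.13 (edgeR adjusted p = 0.586), and the treatments overlapped in both.

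The balance between the subunits was described as the ratio of their levels per length of the longest annotated transcript, with no test. In frozen liver Gclc per Gclm was 5.80, 5.04, 5.86 and 5.27 in furan animals 41 to 44, against 3.67, 3.64, 4.25 and 3.22 in control animals 2, 3, 4 and 6. The means were 5.49 ± 0.40 in furan and 3.70 ± 0.42 in control frozen livers. They were 5.50 ± 0.23 in furan and 3.44 ± 0.39 in control FFPE 18 h tissue, and 7.11 ± 0.49 in furan and 4.58 ± 0.51 in control FFPE 3 weeks tissue (SD, n = 4 each). The furan libraries lay above the control libraries in each preservation. The ratio does not depend on library scaling, and its absolute size depends on the transcript lengths used.

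**Figure D3:**
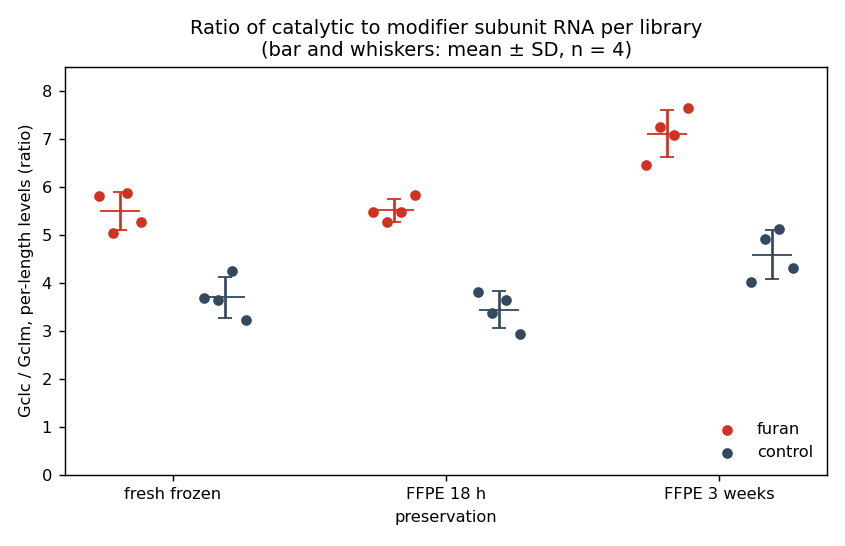
Ratio of per-length Gclc to Gclm RNA in each library (linear axis from 0), furan in red left of control in blue, with points for animals and mean ± SD (n = 4). The furan libraries lie between 5.04 and 7.63 and the control libraries between 2.92 and 5.11, and within each preservation the treatments do not overlap.

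Gss, which completes glutathione, stood at 80.1, 70.4, 82.2 and 69.8 CPM in furan animals 41 to 44 and at 60.6, 61.5, 59.5 and 51.3 CPM in control animals 2, 3, 4 and 6 in frozen liver. All furan libraries were above all control libraries, yet the log2 fold change of 0.38 ± 0.11 did not pass the test (edgeR adjusted p = 0.0939). It passed without control animal 3, at 0.40 (edgeR adjusted p = 0.0178), and in DESeq2, at 0.37 (DESeq2 adjusted p = 0.0234). Gss rose in FFPE 18 h tissue, with 75.1, 57.8, 69.2 and 66.8 CPM in furan animals, against 57.1, 51.3, 50.7 and 47.6 CPM in control animals and a log2 fold change of 0.38 ± 0.08 (edgeR adjusted p = 0.00462). The margin was narrow, with furan animal 42 just above control animal 2, and the call was lost when all libraries were thinned to the smallest (0.40, edgeR adjusted p = 0.0588) or fitted together (0.37, edgeR adjusted p = 0.174). The FFPE 3 weeks values of Gss were 57.7, 41.7, 52.2 and 35.0 CPM in furan animals and 40.8, 38.6, 46.7 and 39.8 CPM in control animals. There the treatments overlapped, and the log2 fold change was 0.17 ± 0.21 (edgeR adjusted p = 0.864). Of the 50-base stretches of the Gss transcript, 4.24% also occur in a transcript of Acss2.

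Slc7a11 encodes the light chain that carries cystine inward in exchange for glutamate. Its promoter is shown because it holds the amino acid response element TGATGCAA in 2 copies, which the share of other promoters with that sequence, 0.895% of the 32851 windows on either strand, puts in context. The 250 bases before the RefSeq start lie at chr3:50443614-50443863 on the minus strand of GRCm38.p6, and the capitals mark the copies, at 66 to 59 bases before the start on the gene's own strand and at 47 to 40 bases before it on the opposite strand:

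Slc7a11: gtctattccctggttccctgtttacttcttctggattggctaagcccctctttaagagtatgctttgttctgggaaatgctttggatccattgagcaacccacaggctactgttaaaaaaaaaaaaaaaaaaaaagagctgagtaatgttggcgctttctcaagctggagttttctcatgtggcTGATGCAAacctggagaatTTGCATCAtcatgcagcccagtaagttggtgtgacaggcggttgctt

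The counts of Slc7a11 were low and are given as reads. In frozen liver there were 7, 12, 28 and 72 reads in furan animals 41 to 44, against 3, 3, 0 and 0 reads in control animals 2, 3, 4 and 6. Every furan library had more reads than any control library, and furan animals 43 and 44 held most of them. Pooled, 119 reads in furan and 6 in control libraries gave a ratio of 17.8 after scaling for depth. That ratio turned on single libraries, left out in a check added after the counts were seen: it was 9.43 without furan animal 44, and with 3 control reads left it was 26.7 (8.93 to 131) without control animal 2 and 27.5 (9.19 to 135) without control animal 3 (95% exact binomial intervals of counting error). The gene did not pass the filter on low counts. In the fit without the filter its log2 fold change was 4.02 ± 0.97 (edgeR adjusted p = 0.0456).

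Slc7a11 had, in FFPE 18 h tissue, 14, 24, 16 and 24 reads in furan animals, against 3, 0, 2 and 2 reads in control animals. The groups did not overlap. Pooled, 78 reads in furan and 7 in control libraries gave a ratio of 10.4, and 7.58 to 13.7 with a library left out. In the fit without the filter the log2 fold change was 3.27 ± 0.83 (edgeR adjusted p = 0.00637), and in the fit over all 24 libraries it did not pass (edgeR adjusted p = 0.131).

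The FFPE 3 weeks libraries were the shallowest, and Slc7a11 had 53, 47, 51 and 16 reads in furan animals and no read in any of the 4 control animals. Pooled, that was 167 reads in furan and 0 in control libraries. With the control libraries together set to a floor of 3 counts the ratio was 55.2. That floor allows for counting error only, without the spread between libraries, so the ratio is not a firm minimum. With a library left out it was 39.1 to 73.0. In the fit without the filter edgeR's adjusted p was 0.000875, and in the filtered fit the gene did not pass without furan animal 42 (edgeR adjusted p = 0.0599). Its fitted fold change rests on a group without reads and is not given as a size. The level was 5.13 ± 2.87 CPM in furan FFPE 3 weeks libraries, against 0.631 ± 0.616 CPM in furan frozen libraries (SD, n = 4 each), each scaled within its preservation. The order of the animals also differed, since furan animal 44 had the highest level in frozen tissue at 1.504 CPM and the lowest in FFPE 3 weeks tissue at 1.39 CPM. The interaction between FFPE 3 weeks and FFPE 18 h did not pass (edgeR adjusted p = 0.626). Of the 50-base stretches of the Slc7a11 transcript, 2.03% also occur in transcripts of other genes.

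Slc7a11 is also expressed by macrophages and other cells outside the hepatocyte. The 14 macrophage markers summed to 509 to 579 CPM in furan and 499 to 1057 CPM in control frozen livers, to 388 to 469 CPM in furan and 430 to 819 CPM in control FFPE 18 h tissue, and to 439 to 510 CPM in furan and 400 to 845 CPM in control FFPE 3 weeks tissue. No macrophage marker passed the test in any preservation, and control animal 4 had the highest sum in each. None of those 14 was at 0 in a whole group. The 12 sinusoidal endothelial markers summed to 746 to 787 CPM in furan and 900 to 970 CPM in control frozen livers, without overlap, and none was at 0 in a whole group. They summed to 852 to 883 CPM in furan and 1007 to 1069 CPM in control FFPE 18 h tissue, and to 829 to 1041 CPM in furan and 941 to 1035 CPM in control FFPE 3 weeks tissue. Of these 12 markers, 1 fell in frozen tissue, 6 in FFPE 18 h tissue and none in FFPE 3 weeks tissue by edgeR's adjusted p. The part of any such cells in the differences of Slc7a11 was not tested. Of 12 hepatocyte markers, 1 fell in frozen tissue, 1 rose and 3 fell in FFPE 18 h tissue, and 2 fell in FFPE 3 weeks tissue. The marker that fell in all 3 was Cyp2e1, chosen after its values were seen, at -0.71 ± 0.12, -0.63 ± 0.07 and -0.77 ± 0.08 (log2, edgeR adjusted p = 0.0108, 2.01e-05 and 1.34e-06). None of 11 stellate cell markers passed in any preservation, nor any of the lymphocyte markers tested, 10 in frozen, 8 in FFPE 18 h and 6 in FFPE 3 weeks tissue. Only 2 of 7 neutrophil markers were tested in frozen tissue, without passing, and none could be tested in fixed tissue. Of the bile duct markers tested, 1 of 9 rose in frozen and 1 of 9 in FFPE 18 h tissue, and none of 6 in FFPE 3 weeks tissue. The shares of all genes called lower, 1.2%, 7.72% and 1.51% in frozen, FFPE 18 h and FFPE 3 weeks tissue, stand beside the counts of markers that fell. Those called higher, 1.57%, 7.82% and 1.07% in the same order, stand beside the counts of markers that rose.

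Gsr, which uses NADPH to regenerate glutathione, stood at 110, 95.7, 102 and 105 CPM in furan animals 41 to 44 and at 87.2, 54.4, 80.6 and 83.7 CPM in control animals 2, 3, 4 and 6 in frozen liver. The treatments did not overlap, and control animal 3 was far below the other control animals. The log2 fold change was 0.43 ± 0.14 (edgeR adjusted p = 0.144). Without control animal 3 it was 0.30 and passed (edgeR adjusted p = 0.0451), and in the fit over all 24 libraries it was 0.43 and passed (edgeR adjusted p = 0.0416).

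Gsr rose in FFPE 3 weeks tissue, and in FFPE 18 h tissue its call was not stable. FFPE 18 h tissue had 115, 97.3, 102 and 104 CPM in furan animals, against 95.7, 90.1, 85.9 and 90.2 CPM in control animals. The groups were separated by a small gap, the log2 fold change was 0.21 ± 0.07 (edgeR adjusted p = 0.0381), and the call was kept without control animal 2 or furan animal 42 and lost in the other 6 of the 8 fits that left out a library. It was also lost without the low-count filter (0.20, edgeR adjusted p = 0.0613), after thinning (0.09, edgeR adjusted p = 0.767) and in the fit over all 24 libraries (0.20, edgeR adjusted p = 0.69). FFPE 3 weeks tissue had 187, 167, 141 and 187 CPM in furan animals, against 113, 120, 91.6 and 106 CPM in control animals. That log2 fold change of 0.66 ± 0.13 (edgeR adjusted p = 0.00331) was kept in each leave-out fit, from 0.59 to 0.74. The furan effect in FFPE 3 weeks tissue exceeded that in FFPE 18 h tissue by 0.45 ± 0.15 on the log2 scale, a difference that did not pass (edgeR adjusted p = 0.618). No 50-base stretch of the Gsr transcript occurs in another gene's transcript.

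**Figure D4:**
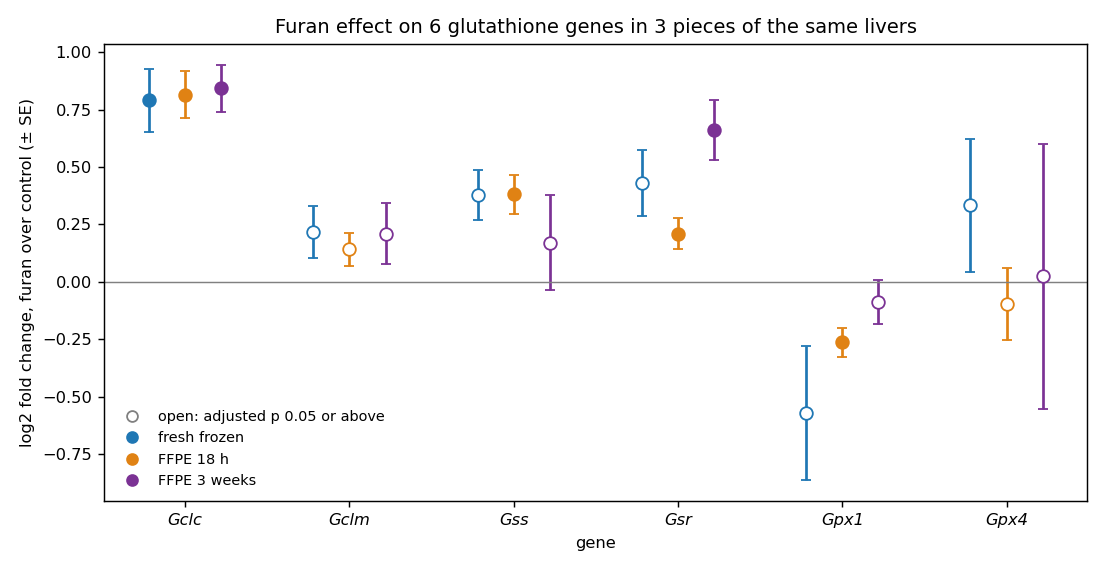
Log2 fold change of furan over control with its SE for 6 genes in the 3 preservations (4 against 4 libraries each); filled points have an edgeR adjusted p below 0.05. Gclc lies between 0.79 and 0.84 in all preservations, and Gpx4 has the widest error in FFPE 3 weeks tissue, at 0.58.

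Of the peroxidases, Gpx1 encodes the abundant cytosolic selenoenzyme that reduces hydrogen peroxide. In frozen liver it stood at 831, 886, 984 and 710 CPM in furan animals 41 to 44, against 915, 2326, 1024 and 799 CPM in control animals 2, 3, 4 and 6. Apart from control animal 3, the treatments overlapped. The log2 fold change was -0.57 ± 0.29 with that animal (edgeR adjusted p = 0.33) and -0.10 ± 0.12 without it (edgeR adjusted p = 0.706). Gpx1 fell in FFPE 18 h tissue, with 820, 795, 830 and 777 CPM in furan animals and 969, 1007, 1004 and 884 CPM in control animals. Each furan library was below each control library, the log2 fold change was -0.26 ± 0.06 (edgeR adjusted p = 0.00854), and the fit over all 24 libraries lost the call (-0.27, edgeR adjusted p = 0.858). In FFPE 3 weeks tissue the range was 551 to 700 CPM in furan and 627 to 689 CPM in control libraries, with a log2 fold change of -0.09 ± 0.10 (edgeR adjusted p = 0.839). The piece of control animal 3 fixed for 18 hours held 1007 CPM, against 884 to 1004 CPM in the other control animals, and the piece fixed for 3 weeks held 667 CPM, against 627 to 689 CPM.

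Gpx4 encodes the peroxidase that reduces lipid hydroperoxides in membranes. In frozen liver it stood at 8.76, 9.15, 9.99 and 8.69 CPM in furan animals 41 to 44, against 8.42, 2.89, 9.72 and 7.97 CPM in control animals 2, 3, 4 and 6. Only control animal 3 lay apart, and the log2 fold change was 0.33 ± 0.29 (edgeR adjusted p = 0.578), or 0.07 without that animal (edgeR adjusted p = 0.819). It was -0.10 ± 0.16 in FFPE 18 h tissue (edgeR adjusted p = 0.736) and 0.02 ± 0.58 in FFPE 3 weeks tissue (edgeR adjusted p = 0.995), where the libraries held only 17 to 124 reads in furan and 20 to 116 reads in control animals. The level of Gpx4 is uncertain because 61.7% of the 50-base stretches of its transcript also occur in another annotated gene, mostly Gpx4-ps2. Whether such reads were counted is not given in the sources used here.

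Gpx2, the peroxidase of the gut lining, and Ggt1, the membrane enzyme that starts the breakdown of glutathione outside the cell, were at the edge of detection. Gpx2 had 0 to 5 reads and Ggt1 0 to 16 reads per library, and each was at 0 in 15 of the 24 libraries. The 16 reads of Ggt1 were in control animal 2 in FFPE 18 h tissue, where the furan libraries had 0, 6, 1 and 0 reads and the other control libraries 0, 0 and 1. Neither gene had a read in any FFPE 3 weeks library, which in 72.9 M counts over the 8 libraries allows up to 0.0412 CPM (3 counts; counting error only). No furan effect on them was testable at this depth.

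Levels of different genes were compared per kilobase of the longest annotated transcript, as RPKM. In furan frozen liver the order was Gpx1 at 796 ± 107, Gclc at 186 ± 18.6, Gsr at 38.6 ± 2.21, Gclm at 33.7 ± 0.99, Gss at 23.2 ± 1.98 and Gpx4 at 9.19 ± 0.60 RPKM. In control frozen liver Gpx1 stood at 1181 ± 665, Gclc at 107 ± 17.5, Gclm at 29.0 ± 3.68, Gsr at 28.6 ± 5.59, Gss at 17.9 ± 1.44 and Gpx4 at 7.28 ± 3.02 RPKM (SD, n = 4 each). Gclm and Gsr did not differ beyond their spread in control frozen livers, and without control animal 3 their order turned, with Gsr at 31.4 ± 1.22 and Gclm at 30.4 ± 2.95 RPKM (SD, n = 3) and Gpx1 at 851 ± 105 RPKM. Slc7a11, Ggt1 and Gpx2 averaged below 0.1 RPKM in both groups. With the median transcript length in place of the longest, Gclm ranked above Gsr in 5 of 6 groups and Gclc above Gpx1 in furan FFPE 3 weeks tissue. The order of these neighbours thus rests on the transcript assumed.

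Other genes of the pathway were counted in 6 lists that together hold 81 genes, with each list's median log2 fold change set beside that of all genes tested, which was -0.01 in frozen, 0.00 in FFPE 18 h and 0.01 in FFPE 3 weeks tissue. Genes named from these lists are those with the smallest p in frozen liver. Over the 6 lists, 4 genes rose and none fell of 79 tested in frozen tissue, 17 rose and 9 fell of 79 in FFPE 18 h tissue, and 2 rose and 1 fell of 76 in FFPE 3 weeks tissue. Of all genes tested, 1.57% rose and 1.2% fell in frozen tissue, 7.82% and 7.72% in FFPE 18 h tissue, and 1.07% and 1.51% in FFPE 3 weeks tissue, and each list's counts are to be read against these shares.

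Among regulators of the antioxidant response, 2 of 11 rose in frozen liver, 6 rose and 1 fell in FFPE 18 h tissue, and none passed in FFPE 3 weeks tissue, with medians of 0.22, 0.28 and 0.33. Atf4, a transcription factor of the amino acid response, rose by 0.54 ± 0.09 in frozen and 0.57 ± 0.07 in FFPE 18 h tissue (log2, edgeR adjusted p = 0.0122 and 2.82e-05) and stood at 0.43 ± 0.14 in FFPE 3 weeks tissue (edgeR adjusted p = 0.121). Nfe2l2, which encodes NRF2, rose by 0.61 ± 0.14 in frozen and 0.46 ± 0.08 in FFPE 18 h tissue (edgeR adjusted p = 0.0436 and 0.000913) and stood at 0.57 ± 0.17 in FFPE 3 weeks tissue (edgeR adjusted p = 0.0645). Cul3, part of the ubiquitin ligase that turns over NRF2, rose in FFPE 18 h tissue (0.28 ± 0.06, edgeR adjusted p = 0.00263) and stood at 0.41 and 0.34 in frozen and FFPE 3 weeks tissue. Nfe2l1, a relative of NRF2, fell in FFPE 18 h tissue (-0.26 ± 0.06, edgeR adjusted p = 0.00354).

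The list around cysteine supply from cystine and methionine also holds genes that use cysteine or return homocysteine to methionine. Its counts are therefore not a measure of supply. In frozen liver 1 of 13 rose, and in FFPE 18 h tissue 3 rose and 1 fell. In FFPE 3 weeks tissue 1 rose and 1 fell. The medians were 0.05, 0.07 and 0.02 in the same order. Bhmt, which remethylates homocysteine to methionine, rose in all 3 pieces, by 1.36 ± 0.27, 1.08 ± 0.21 and 0.99 ± 0.22 in frozen, FFPE 18 h and FFPE 3 weeks tissue (log2, edgeR adjusted p = 0.0243, 0.017 and 0.0253). Cth, which releases cysteine from cystathionine, and Slc1a4, a transporter of small neutral amino acids, rose in FFPE 18 h tissue by 0.32 ± 0.07 and 0.75 ± 0.15 (edgeR adjusted p = 0.00588 and 0.00204). Csad, which carries cysteine on toward taurine, stood at -0.98 ± 0.26 in frozen liver without passing (edgeR adjusted p = 0.0791). The gene that fell in both fixed preservations was Cdo1, which oxidizes cysteine, at -0.38 ± 0.08 and -0.35 ± 0.09 in FFPE 18 h and FFPE 3 weeks tissue (edgeR adjusted p = 0.00284 and 0.0193); it was chosen after its values were seen.

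Among genes of the gamma-glutamyl cycle and glutathione breakdown, none of 12 passed in frozen liver, 2 rose and 1 fell in FFPE 18 h tissue, and none of 10 passed in FFPE 3 weeks tissue, with medians of -0.19, -0.16 and -0.17. Ggct, the gamma-glutamylcyclotransferase, rose in FFPE 18 h tissue by 0.81 ± 0.21 (log2, edgeR adjusted p = 0.0155) and stood at 0.74 ± 0.24 in frozen and 1.37 ± 0.56 in FFPE 3 weeks tissue (edgeR adjusted p = 0.125 and 0.247). Chac1, which cleaves glutathione inside the cell and is a textbook ATF4 target, stood at -1.41 ± 0.37 in frozen liver and did not pass (edgeR adjusted p = 0.0741). Neither did the peptidase gene Anpep at -0.27 ± 0.14 nor Ggt7 at -1.30 ± 0.65 (edgeR adjusted p = 0.327 and 0.315). Of 10 transporters of glutathione and its conjugates, 2 rose and 1 fell in FFPE 18 h tissue and none passed in the other preservations, with medians of 0.03, 0.02 and 0.22 in frozen, FFPE 18 h and FFPE 3 weeks tissue. The export pumps Abcc2 and Abcc4 rose there by 0.41 ± 0.08 and 0.68 ± 0.13 (edgeR adjusted p = 0.002 and 0.00191). Abcc3, another export pump, and Slc25a11, a mitochondrial carrier, stood at -0.21 ± 0.12 and -0.25 ± 0.10 in frozen liver (edgeR adjusted p = 0.35 and 0.231).

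Of 13 other peroxidases, glutaredoxins and glyoxalases, none passed in frozen or FFPE 3 weeks tissue, and 1 rose and 2 fell in FFPE 18 h tissue, with medians of 0.11, 0.07 and 0.07 in frozen, FFPE 18 h and FFPE 3 weeks tissue. Glrx, a glutaredoxin, fell there by 0.44 on the log2 scale (± 0.10, edgeR adjusted p = 0.00544), and Esd, which completes formaldehyde removal with glutathione, rose by 0.20 ± 0.07 (edgeR adjusted p = 0.0454). Hagh, a glyoxalase, stood at 0.27 ± 0.12 and Gpx3, the plasma peroxidase, at -0.59 ± 0.30 in frozen liver (edgeR adjusted p = 0.253 and 0.328). Among selenoproteins and their machinery, the class to which Gpx1 and Gpx4 belong, 1 of 20 rose in frozen liver, 3 rose and 3 fell of 20 in FFPE 18 h tissue, and 1 of 19 rose in FFPE 3 weeks tissue, with medians of -0.05, -0.03 and 0.05. Txnrd1, the cytosolic thioredoxin reductase, rose in all 3 pieces, by 0.64 ± 0.09, 0.67 ± 0.06 and 0.83 ± 0.13 in frozen, FFPE 18 h and FFPE 3 weeks tissue (log2, edgeR adjusted p = 0.00529, 1.7e-06 and 0.000227). Sepw1 (selenoprotein W) and Dio1 (a deiodinase) fell in FFPE 18 h tissue, at -0.58 ± 0.09 and -0.38 ± 0.11 (edgeR adjusted p = 0.000341 and 0.0383), and Dio1 was negative without passing in the other preservations. Vimp, which encodes selenoprotein S, stood at 0.36 ± 0.13 in frozen liver (edgeR adjusted p = 0.18).

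The genes whose log2 CPM, centred within each preservation, ran most like a member over the 24 libraries were found among 11360 candidates. For Gclc they were Net1, Skil and Ugt2b35, with Pearson r of 0.974, 0.955 and 0.954. For Gsr they were Set, Rps27l and Foxn2, with r of 0.938, 0.933 and 0.931. For Gclm they were Api5, Slc19a2 and Wdr43, with r of 0.891, 0.858 and 0.857. For Slc7a11 they were Sorbs2, Mdm2 and Txnrd1, with r of 0.904, 0.883 and 0.877. These libraries share animals, treatment and depth, so r is a description without a p and includes the difference between treatments. With each group's mean removed as well, the 15 pairs of 6 members ran from -0.748 for Gsr with Gpx1 to 0.683 for Gclc with Gclm. Both values include the outlying frozen library of control animal 3. In its group that library was the lowest for Gsr, Gclc and Gclm and the highest for Gpx1.

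Preservation itself was compared with treatments averaged, on 8 libraries of each kind from the same animals. The main fits of preservation and interaction had no term for the animal, and the animal as a block was an alternative. In FFPE 18 h against frozen tissue 5 of 7 tested members were lower and none higher, where 53.9% of 14843 genes were called, 27.3% lower and 26.6% higher. The log2 fold changes were -0.27 for Gclc, -0.22 for Gclm, -0.50 for Gss, -0.20 for Gsr and -0.57 for Gpx1 (edgeR adjusted p = 0.0146, 0.0107, 4.85e-06, 0.0475 and 0.00784). The Gpx1 value was -0.35 without control animal 3 (edgeR adjusted p = 0.000227). The Gsr call was lost with DESeq2's size factors (-0.18, edgeR adjusted p = 0.0639), in DESeq2's test (DESeq2 adjusted p = 0.0661), after thinning (-0.02, edgeR adjusted p = 0.937) and in 7 of the 8 fits that left out a library (edgeR adjusted p = 0.0647 to 0.132), and kept only without control animal 3. Gpx4 stood at -0.31 ± 0.17 (edgeR adjusted p = 0.128), and without control animal 3 it was -0.48 ± 0.10 and passed (edgeR adjusted p = 0.000359). In FFPE 3 weeks against frozen tissue 4 of 7 were lower and none higher, where 48.8% of 14253 genes were called, 25.8% lower and 23% higher. The values were -0.36 for Gclc, -0.68 for Gclm, -1.02 for Gss and -1.11 for Gpx1 (edgeR adjusted p = 0.00123, 6.18e-07, 1.44e-08 and 2.39e-05), and 0.19 ± 0.10 for Gsr, which did not pass (edgeR adjusted p = 0.119) but passed with DESeq2's size factors (0.25, edgeR adjusted p = 0.0394). Without control animal 3 the value was -0.88 for Gpx1 (edgeR adjusted p = 6.17e-09) and 0.09 for Gsr (edgeR adjusted p = 0.391). Gpx4 stood at -0.59 ± 0.32 (edgeR adjusted p = 0.133), and with the animal as a block it was -0.75 and passed (edgeR adjusted p = 0.0237). Lower levels were not particular to the members. Of 12 hepatocyte markers, 11 were lower in FFPE 18 h and 12 in FFPE 3 weeks against frozen tissue, and none higher. Of 79 genes tested from the 6 other pathway lists, 44 were lower and 12 higher in FFPE 18 h tissue. In FFPE 3 weeks tissue 43 of them were lower and 8 higher.

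In FFPE 3 weeks against FFPE 18 h tissue, Gclm, Gss and Gpx1 were lower by log2 fold changes of -0.47, -0.52 and -0.56 (edgeR adjusted p = 2.52e-05, 0.000194 and 4.84e-09), and Gsr was higher by 0.38 (edgeR adjusted p = 0.000221), so that 3 of 7 were lower and 1 higher where 32.4% of 14414 genes were called, 17.5% lower and 14.9% higher. Gclc differed by -0.10 ± 0.07 (edgeR adjusted p = 0.343). Of 12 hepatocyte markers, 10 were lower and none higher in the same comparison. No interaction of treatment and preservation was called for any of the 7 tested members, nor for any gene in edgeR (0 of 14843, 14253 and 14414), where 239, 585 and 766 genes had an unadjusted p below 0.05; DESeq2 called 9 genes for FFPE 3 weeks against frozen and 26 for FFPE 3 weeks against FFPE 18 h, none of them a member.

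**Figure D5:**
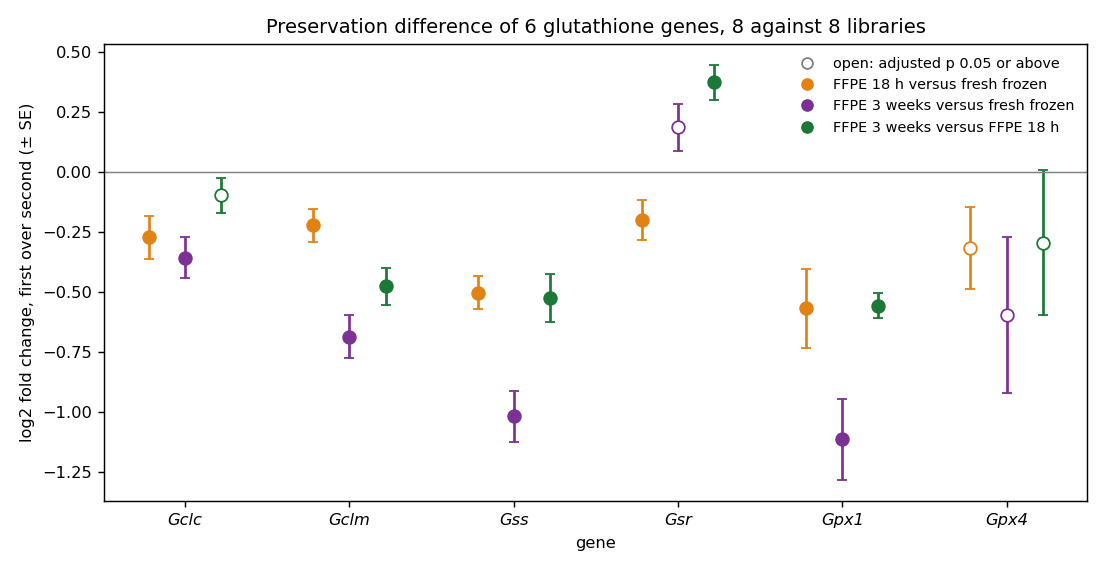
Log2 fold change between preservations with its SE for 6 genes, each over 8 against 8 libraries of the same livers; filled points have an edgeR adjusted p below 0.05. Gss and Gpx1 are below 0 in all comparisons, from -0.50 to -1.11, and Gsr is above 0 in both comparisons of FFPE 3 weeks tissue, at 0.19 and 0.38.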

How the data were processed

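Total RNA from 24 pieces of 8 mouse livers was sequenced after removal of ribosomal RNA. The deposited table holds raw counts per gene symbol, without normalization by the authors. Per the submitters' processing notes, CASAVA 1.8.2, STAR 2.3.0 and featureCounts 1.4.4 were used with genome build mm9; gene models, strand setting and the handling of reads with several matches are not given in the sources used here. The annotation at hand is GRCm38 (GENCODE M21), so it served only for transcript lengths and stretches shared between transcripts, and promoter sequences come from RefSeq (GRCm38.p6).

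Tests were run with edgeR 4.0.16 under R 4.3.3 (TMM factors, filterByExpr, robust quasi-likelihood test, two-sided, Benjamini-Hochberg adjustment over all genes tested), separately for furan against control in each preservation. Preservations and interactions were fitted on the 16 libraries of each pair. SE is the log2 fold change divided by the square root of F. The code was tested on simulated data. Alternatives were DESeq2 1.42.0 (its size factors and its test), no filter on low counts, thinning to 5560002 counts per library with seed 1, a fit over all 24 libraries, each library left out, and the animal as a block. Same-numbered libraries come from the same animal per the labels; their deviations from group means correlated at 0.0402 to 0.451 (FFPE 18 h and frozen), -0.0153 to 0.154 (FFPE 3 weeks and frozen) and 0.0753 to 0.19 (both fixed). All 9 members are named, and from each other list up to 4 genes with the smallest p in frozen liver. Members, lists and tests were chosen with earlier results of these data known.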

Additional observations from a re-analysis of the deposited data

Results flagged for a closer look

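Gpx1 in the frozen library of control animal 3 stood far from the other control libraries. It had 2326 CPM, the next control library had 1024 CPM, and this gap was 0.852 of the range of the 4 libraries, above the critical value of Dixon's test at 95%. It was the only such case among 39 groups of libraries with at least 40 counts. Chance flags about 1 in 20 of such groups, so 1 case among 39 is not more than chance gives. The same library had the lowest Gpx4 and Gsr levels of its group, at 2.89 and 54.4 CPM.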

How the results depend on the processing

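Of the member fold changes under other settings, 743 kept their direction and their side of the threshold, 29 lost the call, 8 gained it and 21 changed sign. In frozen liver the 1 call of furan against control became 2 without the low-count filter (Slc7a11 added), 2 in DESeq2 (Gss added) and 3 in the fit over all 24 libraries (Gsr and Slc7a11 added). With a library left out the calls ranged from 0 to 4, with 0 without furan animal 43 or 44. The 4 calls without control animal 3 were Gclc, Gss, Gsr and a member that the main filter had left out. That fit tested 14303 genes in place of 14122, so its gain in calls includes a change in the genes tested. In FFPE 18 h tissue the 5 calls, Slc7a11 included, became 2 after thinning (Gclc and Gpx1) and 1 in the fit over all 24 libraries (Gclc). For FFPE 18 h against frozen tissue the 5 calls became 1 after thinning (Gss). Among all genes, the 392 calls in frozen liver became 52 after thinning and 1066 in DESeq2, and ranged from 99 to 1148 with a library left out; the 2208 calls in FFPE 18 h tissue became 692 after thinning and 305 in the fit over all 24 libraries, where the 335 in FFPE 3 weeks tissue became 1549, and the 8006 of FFPE 18 h against frozen tissue became 3632 after thinning.

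None of the values that changed sign had passed the test. Slc7a11, -0.33 for FFPE 3 weeks against frozen tissue, was 0.72 in DESeq2 and 0.17 after thinning, and -0.45 for FFPE 3 weeks against FFPE 18 h tissue was 0.36 in DESeq2. These Slc7a11 comparisons average in the FFPE 3 weeks control group, which had no reads, so their fitted values are not read as sizes. With a library left out, log2 values ranged from -0.44 to 0.31 for Gpx4 with furan in FFPE 3 weeks tissue and from -0.63 to 0.27 for Slc7a11 in FFPE 3 weeks against frozen tissue. The interaction of FFPE 18 h and frozen tissue ranged from -0.123 to 0.0133 for Gclm, -0.0139 to 0.0511 for Gss, -1.67 to 0.11 for Slc7a11 and -0.12 to 0.45 for Gpx1. That of FFPE 3 weeks and frozen tissue ranged from -0.0909 to 0.0623 for Gclm, and that of both fixed tissues from -0.0243 to 0.0487 for Gclc and -0.37 to 0.42 for Gpx4. The cause was not tested. With the animal as replicate block, 5 members were called for FFPE 18 h against frozen tissue, where 8522 of all 14843 genes were called. For FFPE 3 weeks against frozen tissue 5 were called (4 without the block, Gpx4 added), where 6719 of 14253 genes were called. For FFPE 3 weeks against FFPE 18 h tissue 4 were called, where 5162 of 14414 genes were called. No other member's call changed. DESeq2 gave no adjusted p for Slc7a11 with furan in either fixed tissue, and thinning left it below the filter in FFPE 18 h tissue. Depth limits Slc7a11, Gpx2 and Ggt1, with at most 72, 5 and 16 reads per library.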
